A study of Mus musculus with 2 samples.

Results

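Imprinted genes are transcribed mainly from the allele inherited from 1 parent, and most of them lie in clusters that share a differentially methylated control region. Many act on growth before and around birth. *Igf2* and other paternally expressed genes are known as promoters of growth, whereas *H19*, *Cdkn1c*, *Grb10* and *Igf2r* are known as maternally expressed brakes on it. The genes described here are 35 imprinted genes of the mouse, found by their symbol among 24421 gene rows of a count table, and they are called members. By textbook parental origin, 14 are maternally expressed, 20 are paternally expressed, and *Gnas* gives rise to transcripts of either kind. Some of these assignments hold in certain tissues only. Read counts per gene do not show the allele of origin, so parental origin is background here and was not measured.

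The transcriptomes are those of primary chondrocytes from rib cartilage (1 library) and of primary dermal fibroblasts from dorsal skin (1 library), both of newborn mice whose strain the sources used here do not give. Chondrocytes were released with collagenase and used within 2 passages, and the fibroblasts served as control cells. No genetic change or treatment was named for either library. The counts summed to 18788599 reads in chondrocytes and 17563724 in dermal fibroblasts. The labelled cell types were visible in their markers, since all 7 chondrocyte markers were over 2-fold higher in chondrocytes, with *Col2a1* at 0 in dermal fibroblasts, and 5 of 6 fibroblast markers were over 2-fold higher in dermal fibroblasts. Other cells left reads as well. The summed level of 8 skeletal muscle markers was 1646 CPM in chondrocytes and 1214 CPM in dermal fibroblasts, with 4 of the 8 over 2-fold higher in chondrocytes and none of them at 0. The 4 were *Pax7* (120 and 4 counts), *Myod1* (2328 and 496), *Tnnt3* (2072 and 772) and *Myog* (3526 and 1728). Higher in dermal fibroblasts were 2 of the 8. For 5 proliferation genes the summed level was 867 and 459 CPM, for 5 keratinocyte genes 8.87 and 246 CPM, for 5 macrophage genes 100.4 and 159.9 CPM, and for 4 adipocyte genes 135 and 331 CPM. For 4 endothelial genes it was 12.4 and 38.3 CPM, and for 4 melanocyte genes 0.837 and 28.5 CPM, with *Dct* and *Tyrp1* at 0 in chondrocytes. Genes of neurons and Schwann cells summed to 162 and 47.6 CPM, mostly through *S100b* in chondrocytes (2657 and 87 counts), which chondrocytes also express. CPM are counts per 1000000 reads of TMM-scaled library size, where TMM is a factor from edgeR that reduces the pull of a few very abundant genes on the comparison. The part of these cells and of proliferation in the differences below was not tested.

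Of the 35 members, 34 had at least 10 counts over both libraries together and *Snrpn* had none in either. A fold is the scaled count in chondrocytes over that in dermal fibroblasts. Counts under 3 were set to 3 for calls and medians. For members at 1 to 3 counts in a library, the ratio of the counts themselves is given. Intervals of folds are 95% Clopper-Pearson intervals, an error of counting alone. With 1 library per cell type there is no replicate check and no p-value, and a lower number of expressing cells cannot be told apart from less RNA per cell.

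The members were mostly higher in chondrocytes. Of the 34, 18 exceeded 2-fold toward chondrocytes, 2 exceeded 2-fold toward dermal fibroblasts, and 14 lay within 2-fold. Among all 14730 genes with at least 10 counts, these shares were 12.0% and 16.2%. A fold above 1 was found for 27 of the 34, against 50.0% of all genes. The whole interval lay above 2-fold for 17 members, against 7.00% of all genes. In the other direction it lay beyond 2-fold for 1 member, against 10.5% of all genes. The median log2 fold was 1.23 for the members and 0.00 for all genes tested. The members were chosen with earlier results of these data known, so these shares describe this list only. A list of other imprinted genes, described below, had a median log2 fold of 0.02. Many members are abundant, and among genes with at least 100 counts the proportions were similar, with 15 of 29 members over 2-fold higher in chondrocytes against 8.76% of 11811 genes, and 1 member over 2-fold higher in dermal fibroblasts against 13.3%.

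**Figure D1:**
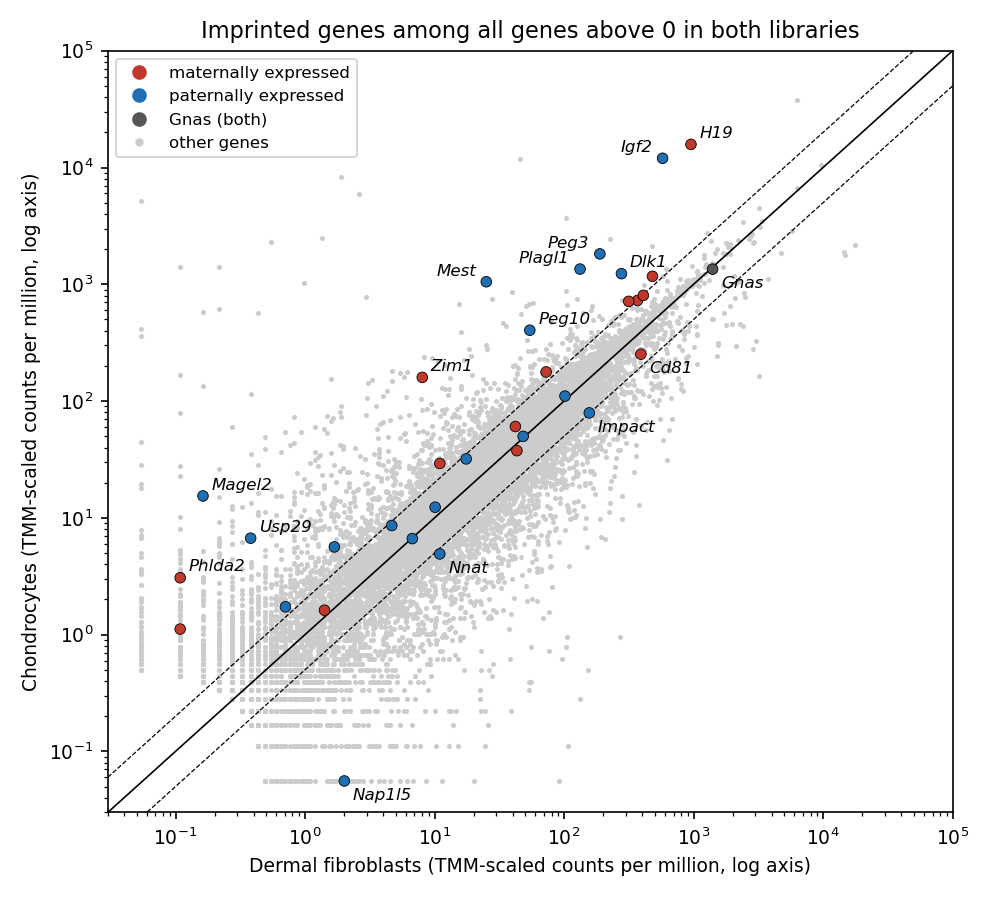
Level of every gene with at least 10 counts that was above 0 in both libraries, in TMM-scaled CPM on log axes, for dermal fibroblasts (horizontal) and chondrocytes (vertical), with members in colour by parental origin. The solid line marks equal levels and the dashed lines mark 2-fold. *H19*, *Igf2*, *Mest* and *Peg3* lie far above the upper dashed line, *Gnas* lies on the line of equality, and *Nap1l5* lies alone among the members at the lower edge with 1 count in chondrocytes.

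The sequences below carry the loci described next. *H19*, *Igf2* and *Mest* hold microRNA genes within their spans, and the mature microRNAs are shown because their hosts were the members with the highest levels per kb in chondrocytes. They are from RefSeq on GRCm38.p6, 5′ to 3′, with the seed (bases 2 to 8) in capitals, and the 6 have 6 different seeds.
mmu-miR-675-5p (*H19*, chr7:142577112-142577133, minus strand): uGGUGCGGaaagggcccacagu
mmu-miR-675-3p (*H19*, chr7:142577078-142577099, minus strand): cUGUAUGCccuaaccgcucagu
mmu-miR-483-5p (*Igf2*, chr7:142654968-142654989, minus strand): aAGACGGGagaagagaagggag
mmu-miR-483-3p (*Igf2*, chr7:142654932-142654952, minus strand): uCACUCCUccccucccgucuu
mmu-miR-335-5p (*Mest*, chr6:30741314-30741336, plus strand): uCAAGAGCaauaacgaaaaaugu
mmu-miR-335-3p (*Mest*, chr6:30741354-30741375, plus strand): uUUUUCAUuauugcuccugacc

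Promoter stretches of RefSeq on GRCm38.p6 are shown for 2 paternally expressed members. *Mest* was far higher in chondrocytes, and *Nap1l5* was lower there, at 1 count against 37. Each gives the 250 bases before an annotated start, on the strand of the gene. Among the annotated starts of each gene, the one with the most TGCCGC matches before it was taken. The matches marked here were thus part of the choice of stretch. Capitals mark TGCCGC or its reverse complement, the core that the zinc finger protein ZFP57 is known to bind when methylated at imprinting control regions.
*Mest* (chr6:30737800-30738049, plus strand): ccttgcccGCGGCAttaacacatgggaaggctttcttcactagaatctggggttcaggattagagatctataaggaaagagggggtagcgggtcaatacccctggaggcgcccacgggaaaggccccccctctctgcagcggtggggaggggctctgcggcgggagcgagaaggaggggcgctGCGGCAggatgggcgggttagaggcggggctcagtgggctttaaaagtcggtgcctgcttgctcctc
*Nap1l5* (chr6:58907127-58907376, minus strand): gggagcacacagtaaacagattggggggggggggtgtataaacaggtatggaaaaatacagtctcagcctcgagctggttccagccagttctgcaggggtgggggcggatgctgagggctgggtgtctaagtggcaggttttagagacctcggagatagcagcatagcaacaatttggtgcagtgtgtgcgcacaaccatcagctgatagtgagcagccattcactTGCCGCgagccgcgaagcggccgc

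Promoter windows of 300 bases (250 before and 50 after a start) were matched for 29 members. TGCCGC, searched on both strands, was found in a window of 12 of these 29 genes (41.4%) and of 13.1% of all 27025 genes with a window. Members had more windows per gene (49 for 29 genes against 32851 for 27025), and per window the shares were 26.5% and 11.6%. The 12 were *Commd1*, *Copg2*, *Grb10*, *Igf2*, *Meg3*, *Mest*, *Nap1l5*, *Nnat*, *Plagl1*, *Snrpn*, *Zdbf2* and *Zim1*, which include members higher, lower and within 2-fold. GGGGCGGGG, a GC-rich site known for the transcription factor PLAGL1 and also read by SP and KLF factors, was found for 4 of 29 members (13.8%) and 12.9% of all genes, and in 10.2% of their windows and 11.4% of all windows. Such a match is a description of the sequence and not a binding site.

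*H19* and *Igf2* lie 72621 bp apart at the distal end of chromosome 7 (142575530 to 142578146 and 142650768 to 142666816 in GRCm38). *H19* is a maternally expressed long noncoding RNA and *Igf2* a paternally expressed growth factor, and the 2 genes are known to share enhancers that methylation assigns to either of them. *H19* had 282909 counts in chondrocytes against 17570 in dermal fibroblasts, a 16.5-fold difference (interval 16.3 to 16.8). *Igf2* had 215049 and 10611 counts, a 20.8-fold difference (interval 20.4 to 21.2). Both were thus high in the same library, with *H19* the 3rd and *Igf2* the 4th most abundant gene by counts in chondrocytes. *H19* took 1.51% of all reads in chondrocytes and 0.10% in dermal fibroblasts. Their folds were slightly unequal. There were 1.32 *H19* reads for each *Igf2* read in chondrocytes and 1.66 in dermal fibroblasts, and the ratio of these ratios, which does not depend on scaling, was 0.795 (exact interval 0.775 to 0.814). The rows of the hosted microRNA genes stayed near 0, at 0 and 0 counts for *Mir675* and 3 and 0 for *Mir483*. Mature microRNAs are not captured by a poly(A) library, so these rows say nothing about their levels. All members together took 3.76% of reads in chondrocytes (interval 3.756 to 3.773) and 0.641% in dermal fibroblasts (interval 0.638 to 0.645). Without *H19* and *Igf2* they took 1.11% and 0.481%.

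Nearer the end of chromosome 7 lies the domain of *Kcnq1ot1*, a paternally expressed noncoding RNA that is known to silence its neighbours in cis. *Cdkn1c*, a maternally expressed inhibitor of the cell cycle that is needed for cartilage and bone growth, had 3182 counts in chondrocytes against 1339 in dermal fibroblasts (2.44-fold, interval 2.29 to 2.60). *Kcnq1ot1* itself had 154 and 86 counts (1.84-fold, interval 1.40 to 2.42), and passed 2-fold with *Actb*. Its span lies wholly within that of *Kcnq1*, which was listed at 0 in both libraries. The silencer and its target were thus both at higher counts in chondrocytes, and the interval of their ratio of ratios reached just past 1 (0.754, interval 0.570 to 1.001). *Phlda2*, known as a brake on placental growth, had 55 and 2 counts, a ratio of 28.2 (interval 7.46 to 239). *Ascl2*, a transcription factor of the placenta, had 20 and 2 counts, a ratio of 10.3 (interval 2.50 to 90.6). These are few reads, and the intervals are wide. *Cd81*, a membrane protein of the tetraspanin family, went the other way with 4522 and 7215 counts and stood 1.55-fold higher in dermal fibroblasts (interval 1.5 to 1.61). The transporter gene *Slc22a18* had 29 and 26 counts, with an interval on either side of 1 (1.15-fold, interval 0.651 to 2.02).

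On chromosome 12, the *Dlk1*-*Meg3* cluster holds paternally expressed protein genes and maternally expressed noncoding RNAs. *Dlk1*, a transmembrane protein known to restrain differentiation of fat and cartilage progenitors, had 22110 counts in chondrocytes against 5106 in dermal fibroblasts (4.45-fold, interval 4.31 to 4.59). The noncoding RNAs differed less. *Meg3* had 13028 and 6787 counts (1.97-fold, interval 1.91 to 2.03), *Rian*, a host of small nucleolar RNAs, had 12800 and 5809 (2.26-fold, interval 2.19 to 2.33), and *Mirg*, a host of microRNAs, had 524 and 202 (2.66-fold, interval 2.26 to 3.15). There were 0.589 reads of *Meg3* for each read of *Dlk1* in chondrocytes and 1.33 in dermal fibroblasts, a ratio of ratios of 0.443 (interval 0.425 to 0.463). *Rian* and *Meg3* stayed near each other, with a ratio of ratios of 1.15 (interval 1.10 to 1.2). *Rtl1*, a retrotransposon-derived gene, had 31 and 13 counts (2.45-fold, interval 1.25 to 5.10), and its RefSeq span shares 6830 bp with that of *Meg3*. *Begain*, a gene of synapses, had 119 and 124 counts, a fold of 0.986 (interval 0.760 to 1.28) that lay above 1 (1.01 to 1.07) with the upper quartile, *Actb* or total counts without the 10 most abundant genes.

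*Peg3*, *Usp29* and *Zim1* form a cluster at the proximal end of chromosome 7, and all 3 were over 2-fold higher in chondrocytes. *Peg3* and *Usp29* are paternally expressed and lie head to head with 96 bases between their spans. This gap is shown because the 2 genes differed in the same direction from neighbouring starts. Capitals mark CCAAT or its reverse complement, the known site of the factor NF-Y.
*Peg3*-*Usp29* gap (chr7:6730463-6730558, plus strand of GRCm38.p6): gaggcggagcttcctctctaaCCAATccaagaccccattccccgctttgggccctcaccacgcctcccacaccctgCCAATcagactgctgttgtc
CCAAT was found in a promoter window of 41.4% of the 29 members and of 41.1% of all genes, and in 26.5% of the members' windows and 37.4% of all windows. *Peg3*, a zinc finger protein, had 32638 counts in chondrocytes against 3479 in dermal fibroblasts (9.64-fold, interval 9.30 to 9.98). *Usp29*, a deubiquitinase gene, had only 120 and 7 counts (17.6-fold, interval 8.29 to 44.7). The maternally expressed zinc finger gene *Zim1* had 2860 and 148 counts (19.8-fold, interval 16.8 to 23.6). *Zim1* differed more than *Peg3*, with a ratio of ratios of 2.06 (interval 1.74 to 2.46), whereas that of *Usp29* to *Peg3* had an interval on either side of 1 (1.83, interval 0.859 to 4.65).

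On chromosome 6, neighbours stood far apart. *Mest*, a paternally expressed hydrolase-like protein of mesoderm, had 18843 counts in chondrocytes against 462 in dermal fibroblasts and was 41.9-fold higher (interval 38.2 to 46.0), a fold above that of 99.5% of all genes tested. *Copg2*, a coat protein subunit of transport vesicles, had 1085 and 775 counts (1.44-fold, interval 1.31 to 1.58). The spans of *Mest* and *Copg2* overlap by 913 bp, and the sources used here do not give the strand setting of the counting, so reads in the overlap cannot be told apart. There were 0.0576 reads of *Copg2* for each read of *Mest* in chondrocytes and 1.68 in dermal fibroblasts. *Peg10*, a retrotransposon-derived gene known from the placenta, had 7244 and 1001 counts (7.43-fold, interval 6.96 to 7.95). *Sgce*, which encodes a sarcoglycan and lies 101 bp from *Peg10*, had 894 and 890 counts. Its fold of 1.03 (interval 0.939 to 1.13) fell to 0.939 with total counts and to 0.969 with total counts without the members. Although *Peg10* and *Sgce* are both paternally expressed from adjoining starts, their ratio of ratios was 7.20 (interval 6.42 to 8.09).

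*Magel2* and *Ndn*, paternally expressed genes of the MAGE family in the *Snrpn* domain of chromosome 7, are 27050 bp apart. *Magel2* had 276 counts in chondrocytes against 3 in dermal fibroblasts, a ratio of 94.5 (interval 32.0 to 461), which rests on those 3 counts and whose interval spans that of *Mest*. With a floor of 10 counts its log2 fold was 4.83, under the 5.39 of *Mest*. *Ndn*, which encodes necdin, a known brake on cell division, had 1977 and 1871 counts, a fold of 1.09 (interval 1.02 to 1.16) that fell to 0.988 with total counts. Their ratio of ratios was 87.1 (interval 29.4 to 425). *Snrpn*, a splicing protein gene, was listed at 0 in both libraries, as was *Snurf*, whose span overlaps it. For a count of 0, the 95% Clopper-Pearson interval reached up to 1.96e-05% of reads in chondrocytes and 2.10e-05% in dermal fibroblasts. This limit concerns reads assigned to the row, since a counting step can leave out reads shared by overlapping genes and that step is not given in the sources used here.

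**Figure D2:**
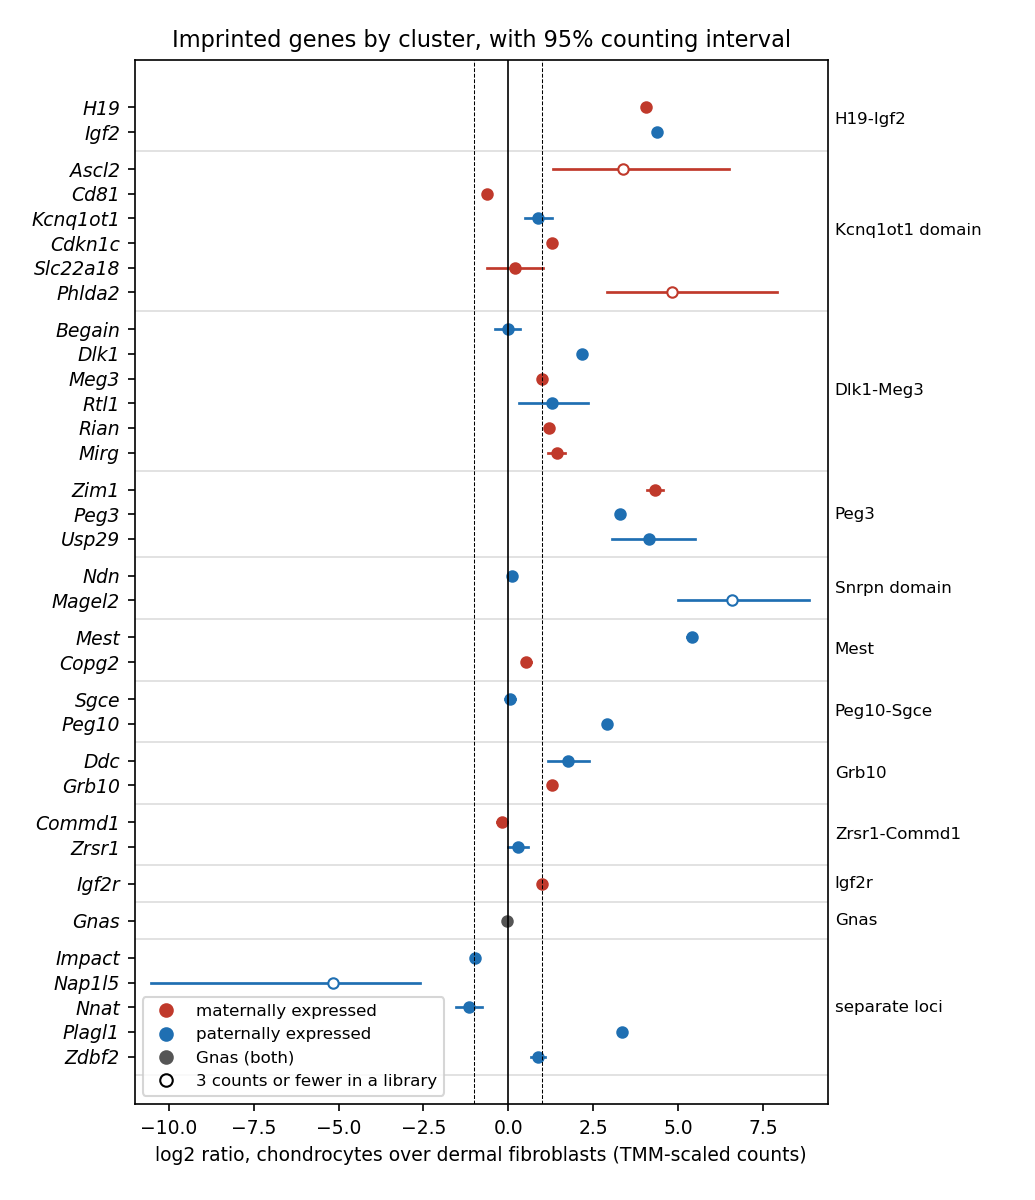
The log2 ratio of TMM-scaled counts, chondrocytes over dermal fibroblasts, for the 34 members with reads, grouped by imprinted cluster and ordered by position within each cluster. Points are ratios, lines are 95% counting intervals, open points mark 3 counts or fewer in a library, and dashed lines mark 2-fold. The *H19*-*Igf2*, *Peg3* and *Grb10* clusters lie wholly beyond the right dashed line, while *Mest* and *Copg2*, *Peg10* and *Sgce*, and *Magel2* and *Ndn* stand apart from their neighbours.

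*Grb10*, a maternally expressed adaptor that dampens insulin and IGF receptor signalling, had 20965 counts in chondrocytes against 8865 in dermal fibroblasts (2.43-fold, interval 2.37 to 2.49). Its neighbour *Ddc*, an enzyme of dopamine and serotonin synthesis, had 101 and 31 (3.35-fold, interval 2.22 to 5.18). *Igf2r*, the receptor that takes up IGF2 for degradation, had 14412 and 7538 counts (1.96-fold, interval 1.91 to 2.02). It lay just under the 2-fold threshold, as did *Meg3*, and both passed 2-fold (2.01 to 2.15) with the upper quartile, *Actb* or total counts without the 10 most abundant genes. *Airn*, the noncoding RNA that silences *Igf2r* on the paternal allele and overlaps it, had 165 and 45 counts (3.77-fold, interval 2.69 to 5.36) and is named after its values were seen. *Gnas*, which encodes the stimulatory G protein subunit, had 24165 and 25810 counts, a fold of 0.962 (interval 0.945 to 0.979) that became 1.05 with *Actb*.

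The members outside clusters did not move together. *Plagl1*, a zinc finger transcription factor known as a regulator of other imprinted genes, had 24196 counts in chondrocytes against 2446 in dermal fibroblasts (10.2-fold, interval 9.75 to 10.6). *Zdbf2* had 573 and 323 (1.82-fold, interval 1.59 to 2.09). The 3 others were lower in chondrocytes. *Nap1l5*, of the nucleosome assembly protein family, had 1 and 37 counts, a ratio of 36.0 in favour of dermal fibroblasts (interval 6.08 to 1461). That ratio rests on 1 count, and with a floor of 10 counts the log2 fold was -1.85. *Nnat*, a small membrane proteolipid known from brain and fat, had 88 and 202 counts and stood 2.23-fold higher in dermal fibroblasts (interval 1.73 to 2.90). *Impact*, a regulator of translation, had 1419 and 2883 counts and stood 1.98-fold higher in dermal fibroblasts (interval 1.86 to 2.11). *Impact* passed 2-fold with total counts, DESeq2 factors and total counts without the members. *Nap1l5* lies within the span of *Herc3* and *Nnat* within that of *Blcap*, and these hosts had 121 and 176 counts and 624 and 974 counts. At the *Commd1* locus, the paternally expressed splicing factor gene *Zrsr1* sits within the span of *Commd1*. *Zrsr1* had 221 and 186 counts (1.22-fold), with an interval that just included 1 (0.9996 to 1.49). *Commd1*, a regulator of copper handling, had 674 and 796 counts, a fold of 0.870 (interval 0.784 to 0.965).

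The folds of maternally and paternally expressed members overlapped widely. Of the 14 maternally expressed members, 8 exceeded 2-fold toward chondrocytes and 0 toward dermal fibroblasts, with a median log2 fold of 1.23 and a range from -0.64 to 4.31. Of 19 paternally expressed members with at least 10 counts, 10 exceeded 2-fold toward chondrocytes and 2 toward dermal fibroblasts, with a median of 1.29 and a range from -3.59 to 6.56. Among all genes tested, 12.0% exceeded 2-fold toward chondrocytes and 16.2% toward dermal fibroblasts. In reads, maternally expressed members took 1.90% in chondrocytes and 0.325% in dermal fibroblasts, and paternally expressed members took 1.74% and 0.169%. Without *H19* the maternal share was 0.395% and 0.225%, and without *Igf2* the paternal share was 0.591% and 0.109%. The difference between these classes was not tested.

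Of the 9 clusters with 2 or more members, 3 had every member over 2-fold higher in chondrocytes. Of 13 pairs within clusters, 12 had reads for both ratios, and the interval of the ratio of ratios left out 1 for 9 of them and included it for 3. These intervals do not hold the variation between cultures, and at such depth small differences pass. No share for other pairs or other groups of neighbouring genes was computed, so both counts describe these clusters and pairs only.

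**Figure D3:**
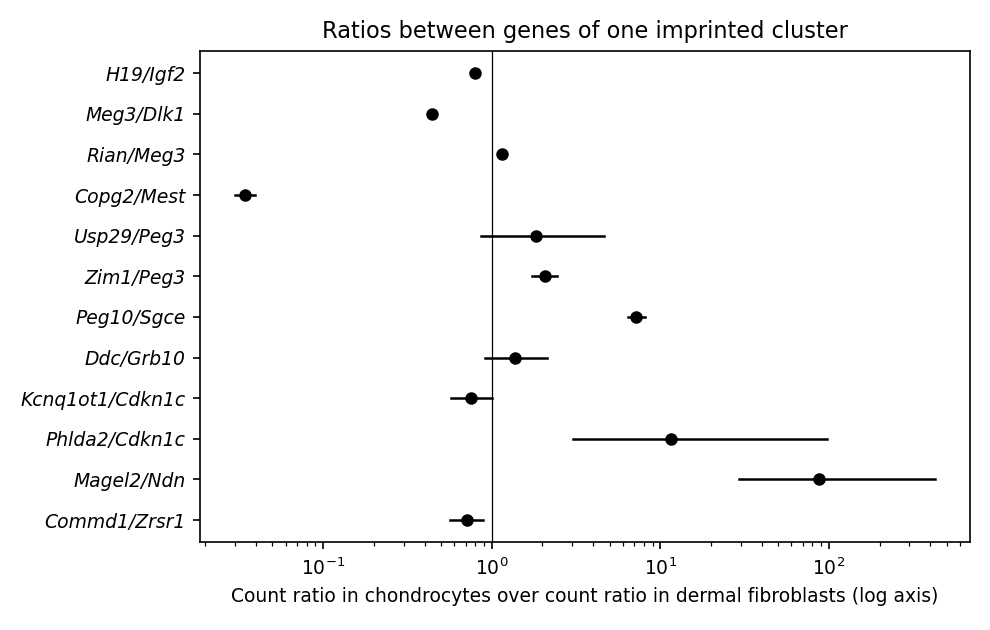
For 12 pairs of members of the same imprinted cluster, the ratio of their counts in chondrocytes divided by the same ratio in dermal fibroblasts, on a log axis, with 95% exact counting intervals. The pairs *Copg2*/*Mest* (0.0343) and *Magel2*/*Ndn* (87.1) lie farthest from 1, and *H19*/*Igf2* (0.795) and *Rian*/*Meg3* (1.15) lie near it.

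Levels can be compared between genes only per length of transcript. In TMM-scaled CPM per kb of exon, with lengths of the GENCODE vM1 annotation for 34 members, *H19* stood at 6654 in chondrocytes, *Igf2* at 2184, *Mest* at 267, *Dlk1* at 218 and *Plagl1* at 185. In dermal fibroblasts the order was different, with *H19* at 402, *Cd81* at 173, *Gnas* at 125, *Igf2* at 105 and *Ndn* at 61.5. The order depends on the length used, and by the longest transcript *Gnas* stood at 342 in chondrocytes, above *Dlk1* (265), and at 355 in dermal fibroblasts, above *Cd81* (256). By exon length, *Mest* ranked 3rd among the members in chondrocytes and 18th in dermal fibroblasts, at 6.37. *Magel2* (3.30), *Usp29* (2.57) and *Phlda2* (4.05) were low even in chondrocytes, so that some of the largest folds belong to genes with low levels.

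**Figure D4:**
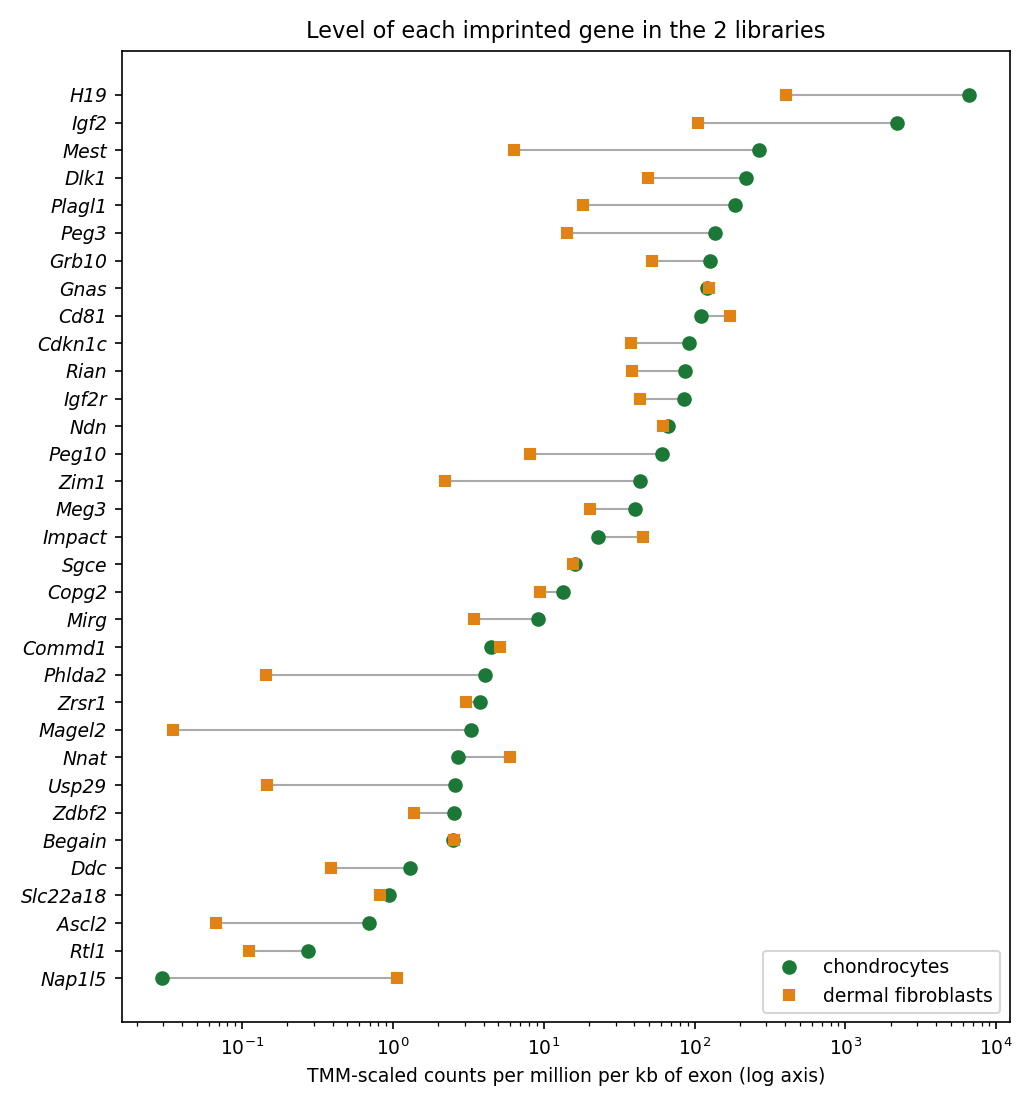
Level of each member with reads and a known exon length, in TMM-scaled CPM per kb of exon on a log axis, in chondrocytes (circles) and dermal fibroblasts (squares), ordered by the chondrocyte level. *H19* (6654 and 402) and *Igf2* (2184 and 105) stand above all other members in chondrocytes, and *Gnas*, *Ndn*, *Sgce* and *Begain* have nearly the same level in both libraries.

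Other imprinted genes were set beside the members in a list of 47 genes known to be imprinted in at least 1 mouse tissue, some in placenta or brain only. Of these, 46 were in the table and 36 had at least 10 counts. In this list 8 exceeded 2-fold toward chondrocytes (22.2%) and 7 toward dermal fibroblasts (19.4%), and the median log2 fold was 0.02. Among all genes tested these shares were 12.0% and 16.2%. *Asb4*, a ubiquitin ligase adaptor gene of the *Peg10* neighbourhood, had 511 and 8 counts (65.6-fold, interval 33 to 153). *Cobl* near *Grb10* had 679 and 148 (4.71-fold, interval 3.94 to 5.67), *Atp10a* 1489 and 546 (2.80-fold, interval 2.54 to 3.10) and *Ppp1r9a* 295 and 96 (3.16-fold, interval 2.5 to 4.02). *Klf14*, a transcription factor gene near *Mest* that is named after its values were seen, had 215 and 5 counts. *Tspan32*, also named after its values were seen, had 165 and 4 counts (42.4-fold, interval 16.2 to 157). Higher in dermal fibroblasts were *Dcn*, the matrix proteoglycan decorin, with 5247 and 18509 counts (3.43-fold, interval 3.33 to 3.54), and *Dhcr7*, an enzyme of cholesterol synthesis, with 328 and 1913 (5.68-fold, interval 5.05 to 6.40). *Qpct* had 105 and 632 (5.86-fold, interval 4.76 to 7.28) and *Tfpi2*, a protease inhibitor, had 32 and 369 (11.2-fold, interval 7.81 to 16.7). *Ampd3* (2.52-fold, interval 2.13 to 2.99) and *Peg13* (2.59-fold, interval 2.11 to 3.19) were also higher there. *H13* and *Nap1l4*, which with *Dcn* had the most counts of the list, lay within 2-fold.

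The genes that keep or read imprints mostly lay within 2-fold. Of 18 genes for imprint maintenance, 17 had at least 10 counts and 0 of the 17 passed 2-fold in either direction, with a median log2 fold of 0.20. Among all 14730 genes tested, 10581 also lay within 2-fold. Some intervals still left out 1, such as those of *Uhrf1* (1.58-fold, interval 1.46 to 1.71) and *Ehmt2* (0.674, interval 0.640 to 0.711). *Zfp57* had 332 counts in chondrocytes against 278 in dermal fibroblasts, and *Ctcf*, the factor that insulates *Igf2* from its enhancers, had 1346 and 1141. *Dnmt1*, the maintenance DNA methyltransferase, had 3400 and 2260 (1.55-fold, interval 1.46 to 1.63). Among 11 partners of IGF2 and *H19*, such as receptors and RNA-binding proteins, 9 had at least 10 counts, and *Pappa*, a protease that frees IGFs from their binding proteins, was 2.42-fold higher in dermal fibroblasts (1050 and 2614 counts, interval 2.26 to 2.61). The receptor gene *Igf1r* had 1663 and 2098 counts and *Igf2bp3* 905 and 950. *Lin28a* and *Lin28b* were listed at 0 in both libraries. Of 28 rows for a chosen list of microRNA genes of imprinted clusters, 20 were at 0 in both libraries and none of the 28 exceeded 4 counts. This list is not complete, and some microRNA rows outside it were a little higher, such as *Mir3072* within *Mirg* at 8 and 10 counts.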

How the data were processed

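RNA-Seq reads of 75 bp from stranded mRNA libraries were mapped by the authors to mm10 (GRCm38) with TopHat 2.0.13, Bowtie2 2.2.3 and SAMtools 0.1.19, per the methods and the submitters' processing notes. The values the authors deposited are unscaled counts, whole numbers by gene symbol. The counting program, its annotation and its strand setting are not given in the sources used here. The 27 rows whose symbol had become a date stayed in the totals.

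Counts were divided by TMM effective library sizes (edgeR 4.0.16, R 4.3.3), and folds, Clopper-Pearson and exact conditional intervals were computed in Python 3.11.15 with numpy 2.4.6, scipy 1.17.1 and pandas 2.3.3, with a floor of 3 counts and a minimum of 10 counts over both libraries. The libraries carried no molecular identifiers, so reads are not independent molecules and intervals hold counting error alone. The calculations were tested on simulated data. Members and lists were chosen with earlier results of these data known. All members are named. In the lists of other imprinted genes, imprint maintenance genes and partners, genes with at least 100 counts and a fold over 2 are named. At most the 10 with the most counts are named per list, and for other imprinted genes also the 3 with the most counts. Cell type markers are given mainly as summed levels, so a marker left unnamed may still exceed 2-fold. Some further genes of these lists are named for their known role or after their values were seen. Alternatives were total counts, DESeq2 1.42.0 factors, the upper quartile, total counts leaving out the 10 top genes or the members, *Actb*, floors of 1 or 10 counts, a pseudocount of 1, other count minimums, a fold over 4 and the whole interval beyond 2-fold. Positions are those of RefSeq on GRCm38.p6, and exon lengths are from GENCODE vM1, an annotation of another build used for lengths only, which has no entry for *Kcnq1ot1* by that symbol.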

Additional observations from a re-analysis of the deposited data

How the results depend on the processing

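No paired analysis was possible because chondrocytes and fibroblasts had 1 library each. Of 306 member folds under 9 alternatives, 247 stayed within the counting interval. The floors and the pseudocount leave folds at high counts nearly unchanged by construction. Among the called folds 0 changed direction, which scaling shifts as small as those given below could not bring about. Of the members within 2-fold, *Sgce* and *Ndn* fell below 1 and *Begain* and *Gnas* rose above 1 under some scalings. The median log2 fold of the members, 1.23, was 1.09 with total counts, 1.35 with *Actb*, 1.11 with a floor of 10 counts and 1.08 without *H19* and *Igf2*, and the maternally expressed members gave the same 1.09, 1.35 and 1.11. Relative to TMM, total counts shift every log2 fold by -0.14 and *Actb* shifts it by 0.12. The number of members over 2-fold higher in chondrocytes, 18, ranged from 12 with a fold over 4 to 21 with *Actb*. Those over 2-fold higher in dermal fibroblasts went from 2 to 1 with at least 100 counts, with a fold over 4 and with the whole interval beyond 2-fold, and to 3 with total counts, DESeq2 factors and total counts without the members. A fold over 4 left 4 maternally expressed members, 5 other imprinted genes higher in chondrocytes and 3 higher in dermal fibroblasts, since it removes genes by construction. Members took 3.76% and 0.641% of reads in chondrocytes and dermal fibroblasts, and 1.11% and 0.481% without *H19* and *Igf2*. By longest transcript in place of exon length, 9 of the 10 highest members per kb in chondrocytes and 10 of 10 in dermal fibroblasts were shared, but their order and the level of *Gnas* changed. Depth limits *Ascl2*, *Phlda2*, *Magel2* and *Nap1l5*, which had 3 counts or fewer in a library.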
